A study of Mus musculus with 6 samples.

Results

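Genes named Zfp followed by a number encode zinc finger proteins, and 360 of the 20665 autosomal protein-coding genes of the mouse bear such a name (7 more lie on the X chromosome and were left out). DNA methylation of these genes was measured in lung endothelial cells. They were taken by symbol from the RefSeq gene table of assembly GRCm38.p6 (mm10), and every 1-kb window that overlapped a gene or the 1 kb on either side of it was kept, 9566 of 1683697 windows with a value in all 6 samples. The endothelial cells were sorted by flow cytometry from lungs of wild-type mice and profiled by tagmentation-based whole-genome bisulphite sequencing, in which a transposase builds the library and bisulphite marks unmethylated cytosines. The sample names give 3 samples called mAdu and 3 called Aged, and the design text gives ages of 8 and 18 months. The names do not state these ages, so Aged was taken as 18 months. No treatment, mutation or transgene is named for either group, so age is the only named difference between them. No batch is labelled, and a batch that followed the groups could not be told apart from age. Each value is the mean methylation fraction of a window, given here in percent. Some values, such as 1.65e-88% in 1 window of mAdu replicate 1, cannot be a share of counted calls. How the values were estimated is not given in the sources used. The table holds no read coverage, so the depth behind each value is unknown and no counting interval can be given. Whether a sample is 1 animal or a pool is not labelled, so the p-values measure the spread between these 6 samples only.

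Zinc finger proteins of the common C2H2 type bind DNA through tandem fingers, each folded around a zinc ion. Many of them carry a KRAB domain, which recruits the co-repressor Trim28 and, through it, Setdb1, a histone methyltransferase that marks silent chromatin. The KRAB genes multiplied by tandem duplication, so that many stand in clusters of related genes, and a large share of the proteins bind and silence transposable elements. In many cell types the finger-coding ends of these genes are themselves packed in silent chromatin. The symbol also covers proteins with other fingers and other roles, among them Zfp36 (tristetraprolin), which binds AU-rich messenger RNAs and promotes their decay. Here 187 genes stood in 28 clusters (at least 3 genes with gaps of at most 250 kb between neighbours), 44 stood in 22 pairs and 129 were single. Chromosome 7 held 90 of the genes, chromosome 17 held 41 and chromosome 13 held 32.

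The sequence around the annotated start, where RefSeq gives one (301 of the 360 genes), shows the range of starting points in this family. The sequences below run from 250 bases before to 50 bases after the start, 5′ to 3′ on the strand of the gene, in GRCm38.p6 coordinates. CpG dinucleotides, the sites that the assay reads, are in capitals. The first 3 belong to genes with some of the lowest promoter ends, the next 3 to the genes with the highest promoter ends (extreme windows set aside), and the last 2 to Zfp57 and Zfp42. All 8 are RefSeq reference sequence. The positions in the same order are chr12:40445741-40446040 (minus strand), chr7:127232811-127233110 (plus), chr3:95015408-95015707 (minus), chr13:67421369-67421668 (minus), chr17:21733474-21733773 (plus), chr13:67332511-67332810 (minus), chr17:37000913-37001212 (plus) and chr8:43306960-43307259 (minus).
Zfp277: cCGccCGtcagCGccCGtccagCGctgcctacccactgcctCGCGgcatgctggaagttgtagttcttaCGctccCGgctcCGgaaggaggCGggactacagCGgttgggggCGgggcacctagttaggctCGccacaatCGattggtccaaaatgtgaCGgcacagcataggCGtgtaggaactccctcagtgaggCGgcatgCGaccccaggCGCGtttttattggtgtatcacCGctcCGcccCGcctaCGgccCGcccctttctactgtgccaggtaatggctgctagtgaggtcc
Zfp553: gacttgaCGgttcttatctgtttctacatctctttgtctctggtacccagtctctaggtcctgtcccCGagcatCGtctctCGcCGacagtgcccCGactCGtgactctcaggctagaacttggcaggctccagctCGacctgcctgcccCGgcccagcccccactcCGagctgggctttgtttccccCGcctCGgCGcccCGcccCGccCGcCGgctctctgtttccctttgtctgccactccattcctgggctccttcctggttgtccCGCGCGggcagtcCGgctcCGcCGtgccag
Zfp687: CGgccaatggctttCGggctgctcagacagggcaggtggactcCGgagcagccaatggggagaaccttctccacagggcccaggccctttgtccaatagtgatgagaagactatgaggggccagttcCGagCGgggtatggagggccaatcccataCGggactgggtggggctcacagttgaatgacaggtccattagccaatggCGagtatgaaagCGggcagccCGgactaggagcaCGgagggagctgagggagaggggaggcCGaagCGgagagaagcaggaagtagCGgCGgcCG
Zfp459: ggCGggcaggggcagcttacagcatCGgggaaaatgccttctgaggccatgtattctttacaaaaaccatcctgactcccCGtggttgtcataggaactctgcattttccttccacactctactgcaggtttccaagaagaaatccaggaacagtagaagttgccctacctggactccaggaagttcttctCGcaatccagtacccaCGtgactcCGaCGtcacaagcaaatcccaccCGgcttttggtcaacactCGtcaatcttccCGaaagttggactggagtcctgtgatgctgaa
Zfp229: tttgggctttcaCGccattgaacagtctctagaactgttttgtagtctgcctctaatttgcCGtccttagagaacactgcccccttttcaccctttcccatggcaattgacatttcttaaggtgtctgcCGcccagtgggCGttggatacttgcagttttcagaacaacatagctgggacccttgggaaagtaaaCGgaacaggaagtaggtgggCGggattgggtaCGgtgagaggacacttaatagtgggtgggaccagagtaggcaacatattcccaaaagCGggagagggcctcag
Zfp595: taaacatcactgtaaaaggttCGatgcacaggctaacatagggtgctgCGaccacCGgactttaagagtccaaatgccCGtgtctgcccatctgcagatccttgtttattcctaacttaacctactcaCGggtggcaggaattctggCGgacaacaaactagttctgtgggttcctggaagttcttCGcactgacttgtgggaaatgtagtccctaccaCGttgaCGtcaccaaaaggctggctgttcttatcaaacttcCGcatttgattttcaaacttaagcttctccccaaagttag
Zfp57: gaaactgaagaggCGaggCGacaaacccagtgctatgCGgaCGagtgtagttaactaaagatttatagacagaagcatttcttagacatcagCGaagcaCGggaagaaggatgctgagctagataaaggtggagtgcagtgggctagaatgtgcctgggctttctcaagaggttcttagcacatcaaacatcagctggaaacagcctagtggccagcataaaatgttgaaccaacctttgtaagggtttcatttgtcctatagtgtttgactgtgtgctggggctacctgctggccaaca
Zfp42: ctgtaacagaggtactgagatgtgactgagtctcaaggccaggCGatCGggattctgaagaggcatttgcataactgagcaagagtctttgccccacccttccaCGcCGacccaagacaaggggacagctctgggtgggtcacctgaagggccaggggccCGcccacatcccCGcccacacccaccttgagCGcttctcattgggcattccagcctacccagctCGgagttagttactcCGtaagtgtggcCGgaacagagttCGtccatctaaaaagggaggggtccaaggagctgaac
The Zfp277 sequence holds 26 CpGs and the Zfp553 sequence 23, while that of Zfp57 holds 6 and that of Zfp42 holds 11. The windows at these starts differed as widely. Over the 6 samples, methylation at the Zfp277 start was 0.745%, 0.321% and 0.476% in mAdu and 0.433%, 1.94% and 2.04% in Aged. At the Zfp57 start it was 78.7%, 77.4% and 80.2% in mAdu and 78.0%, 78.8% and 81.0% in Aged. Both genes kept their place in every sample.

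3 regions were measured in each gene. The promoter end took all windows overlapping 1000 bp beyond to 500 bp within the gene edge on the side of the annotated start. The opposite end took the same span at the other edge, and the body took windows overlapping the gene from 500 bp inside each edge. A window at the border could thus count in an end and in the body. In 49 of the 301 genes with an annotated start, that start lay over 500 bp from the edge. For 54 genes without an annotated start the less methylated edge was taken as the promoter end, and 5 genes were given none. Zfp966 and Zfp967 had no window in the table. Values were obtained for 352 promoter ends, 355 bodies and 331 opposite ends. The table lists 77.5% of the window positions of these genes and 78.6% of those of all other protein-coding genes. Listing was lower in clusters (68.7%) than in pairs (75.8%) or single genes (84.6%). Windows that came within 0.01 points of 0% or 100% in some sample are called extreme. They made up 110 of the 9566 family windows (1.15%) and 1.72% of all windows. Counted gene by gene, the share was 1.14% in the family, above the 0.9996% of other protein-coding genes. It was 1.81% in cluster genes, 3.67% in pairs and 0.313% in single genes. Near-identical family copies can share reads, and how such reads were placed is not given in the sources used here.

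Bodies of endothelial markers were lower in the median than those of other marker lists, with a wide range. The median promoter end of 10 endothelial genes was 23.0%, and the median body of the 9 with a body value was 45.3%, from 4.303% in Sox17 to 78.04% in Emcn. Bodies of 6 epithelial, 6 haematopoietic and 6 mesenchymal marker genes had medians of 69.6%, 71.2% and 72.2%. Their ranges were 1.89% to 75.7%, 66.4% to 76.0% and 55.3% to 77.3%, so they overlapped the endothelial range. Median promoter ends were 29.6%, 73.5% and 22.9% in the same order, so the epithelial and mesenchymal lists lay near the endothelial one there. The mean over each of these lists differed by at most 2.74 percentage points between the lowest and the highest sample.

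Methylation of the zinc finger genes was lowest at the promoter end and highest at the opposite end, which exceeded 80% in most of them. The mean promoter end was 34.4%, 33.6% and 33.9% in the mAdu samples and 34.2%, 33.8% and 34.4% in the Aged samples. The mean body was 75.5%, 75.2% and 75.5% in mAdu and 75.6%, 74.9% and 75.7% in Aged. The mean opposite end was 82.2%, 81.7% and 82.4% in mAdu and 81.9%, 80.7% and 82.1% in Aged. The 3 regions kept this order in every sample, and the 2 ages overlapped in each region.

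Other protein-coding genes showed the same order with a smaller step. Their means were 39.0%, 70.2% and 72.9% in mAdu and 39.0%, 70.2% and 72.8% in Aged. Averaged over the 6 samples, the zinc finger genes minus the others gave -4.93 ± 0.328 points at the promoter end, 5.19 ± 0.240 in the body and 9.01 ± 0.510 at the opposite end (SD, n = 6), in the same direction in every sample. The SD of the group means over samples was at most 0.746 points for the zinc finger genes and 0.274 points for the others. Medians over genes were 32.4%, 77.9% and 86.3% for the zinc finger genes and 34.6%, 73.2% and 77.5% for the others. An opposite end above 80% was found in 236 of 331 zinc finger genes (71.3%) and in 42.4% of the other genes. A body above 80% was found in 138 of 355 (38.9%) against 19.2%. Low promoter ends were about as frequent in both sets, with 110 of 352 under 20% (31.3%) against 28.1%. Order within a gene was counted only where a start is annotated, since elsewhere the less methylated edge was taken as the promoter end. The opposite end lay above the promoter end in 252 of 276 such zinc finger genes (91.3%) and in 81.3% of the others. The median gap was 51.2 points in the former. The opposite end lay above the body in 216 of 274 (78.8%) against 66.5%. The genes were grouped by name and are not replicates of a condition, so these differences are given as descriptions without a test.

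**Figure D1:**
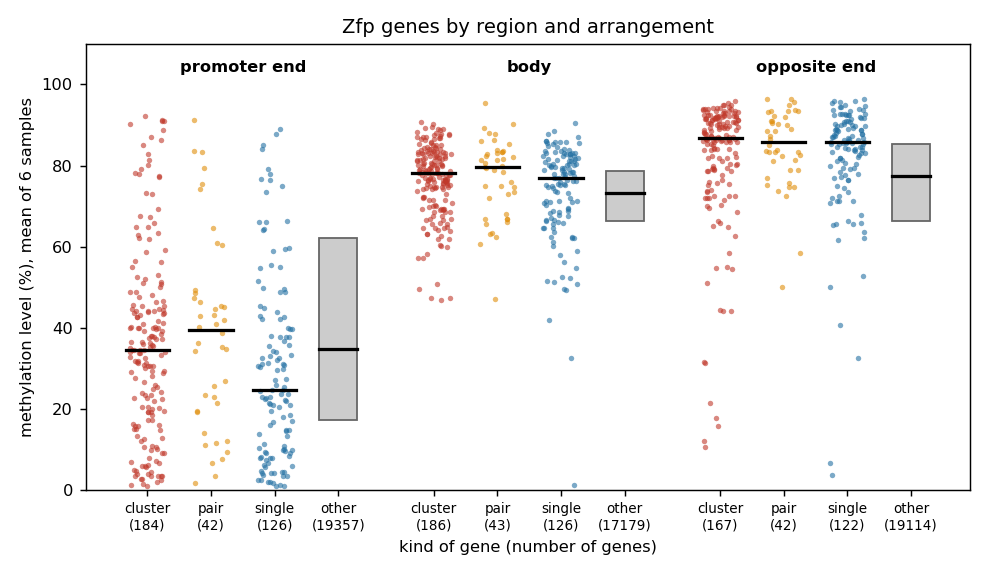
Methylation level (%, mean of 6 samples) of each zinc finger gene at the promoter end, in the body and at the opposite end, split into cluster, pair and single genes, with black lines at the medians. Grey boxes give the quartiles and median of all other protein-coding genes. The opposite ends gather near a median of 86.3%, above the 77.5% of other genes, while promoter ends spread from 0.858% to 92.2%.

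The profile by distance from the gene edge, over genes with an annotated start, places these differences more finely. Distances are from the edge and not from the start, which lay over 1000 bp inside the edge in 38 zinc finger genes. In the first 1 kb inside the start edge the zinc finger genes averaged 20.8% and other genes 28.2%. From 1 to 2 kb inside, the order turned, with 58.0% against 51.9%. By 3 to 4 kb inside, the values were 77.9% and 70.8%. At the far edge the last 4 to 5 kb of the gene averaged 82.6% in zinc finger genes and 75.2% in others. Beyond that edge, 2 to 3 kb outside, the sets came closer, at 74.3% and 69.8%. Averaged over the family, the low stretch at the start edge was thus deeper and narrower than in other genes. In the means, single genes did not share the narrowness. They averaged 47.0% from 1 to 2 kb inside, below other genes, and 70.9% from 3 to 4 kb inside, level with them. Their medians at these distances were 53.1% and 82.6%, against 61.4% and 78.9% in other genes. By the median, single genes thus lay above other genes from 3 to 4 kb inside. The excess of the family faded outside the gene.

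Cluster genes reached high mean methylation nearer to the start edge than single genes. In the first 1 kb inside the start edge they stood at 22.9% and 16.3%, from 1 to 2 kb inside at 64.8% and 47.0%, and from 3 to 4 kb at 81.0% and 70.9%. For the last of these distances the 6 samples ranged from 79.9% to 81.5% in cluster genes and from 70.1% to 72.1% in single genes, without overlap. At the far edge, 4 to 5 kb inside, cluster genes averaged 86.1% and single genes 77.0%. In the last 1 kb of the gene they differed little, at 82.1% and 81.2%. Medians over genes lay closer than the means, at 87.2% and 82.6% from 3 to 4 kb inside the start edge. From 4 to 5 kb inside the far edge the medians were 90.1% and 87.7%.

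**Figure D2:**
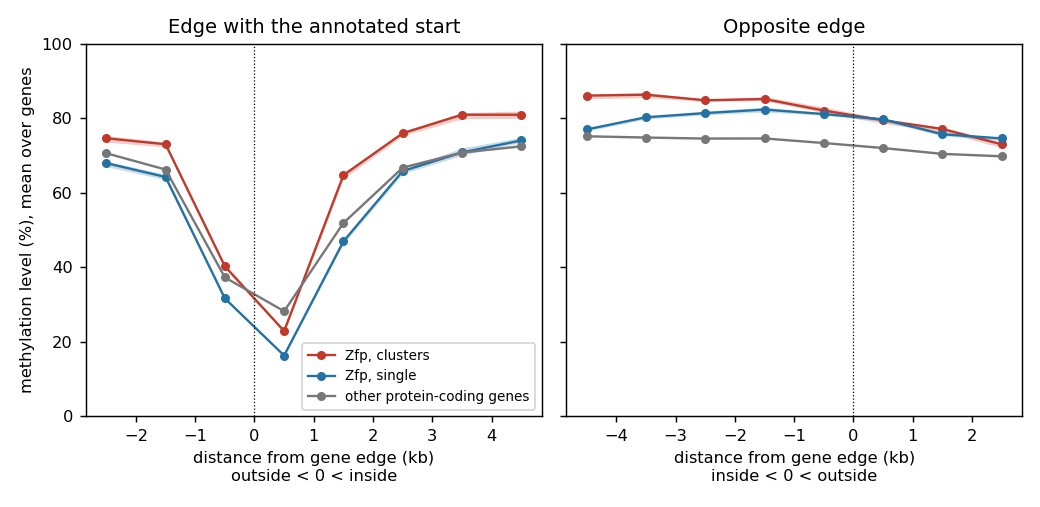
Mean methylation (%) by distance from the gene edge in kb, for cluster and single zinc finger genes and all other protein-coding genes with an annotated start. Points are means over the 6 samples and bands run from the lowest to the highest sample. Cluster genes reach 81.0% by 3 to 4 kb inside the start edge, where single genes stand at 70.9%.

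Over the 3 regions, cluster genes exceeded single genes at the promoter end and in the body, but not at the opposite end. The mean promoter end was 36.0% in clusters and 29.7% in single genes. The difference was 6.26, 6.11 and 6.68 points in the mAdu samples and 6.19, 6.02 and 6.55 in the Aged samples, a mean of 6.30 ± 0.259 (SD, n = 6). Every sample had it in the same direction. In the body the difference was 3.16 ± 0.178 points (SD, n = 6), from 76.4% against 73.3%. At the opposite end it was -0.478 ± 0.572 points (SD, n = 6), smaller than its spread over samples. When only genes with an annotated start were used and the promoter was measured around that start, the cluster excess there was 4.62 points, from 31.2% and 26.6%. The starts of cluster genes held fewer CpGs, a median of 11 in 300 bases against 17 in single genes, and their windows were listed less often, as given above. The part of either in the difference was not tested.

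Pair genes averaged 38.0% and 39.3% at the promoter end, 77.1% and 76.8% in the body and 85.3% and 83.6% at the opposite end, in mAdu and Aged. Their spread was the widest, with an SD of 3.05 points at the Aged opposite end. It moved with 3 pair genes on chromosome 2, Zfp968, Zfp965 and Zfp973, in which all 24 windows were extreme. Zfp968 was at 100% in 5 samples over its 7 body windows and at 41.4% in Aged replicate 2. Zfp965 was likewise at 100% in 5 samples and at 1.02% in that same sample, and Zfp973 was under 0.01% in mAdu replicate 2 and at 100% in the others. Without extreme windows, pair genes averaged 33.8% and 35.3% at the promoter end and the SD at the Aged opposite end was 0.968 points. Zfp968 has one of the 4 highest promoter ends of the family, and this value rests on extreme windows alone.

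Promoter ends covered nearly the whole range of methylation. The lowest belonged to Zfp654 (0.858%), Zfp524 (0.927%), Zfp277 (0.993%) and Zfp553 (1.02%). The highest, apart from Zfp968, belonged to Zfp595 (92.2%), Zfp229 (91.1%) and Zfp459 (90.9%). The sequences printed for these 3 genes lie elsewhere: their annotated starts stand 10394, 2769 and 21884 bp inside the gene edge.

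At those starts methylation was far lower. For Zfp595 it was 8.21%, 7.76% and 8.91% in mAdu and 7.06%, 6.80% and 8.86% in Aged, against 92.2% at the edge. For Zfp229 it was 27.98% over the 6 samples, and for Zfp459 it was 49.98%. The same held more widely: in the 38 genes whose annotated start lay over 1000 bp inside the edge, the median was 64.1% at the edge and 29.1% at the start. Zfp423, a factor of fat cell commitment, had 25.8% at its edge and 0.85% at a start 2458 bp inside. The reverse order also occurred: Zfp445, which helps keep methylation at imprinted regions, had 6.51% at its edge and 48.5% at a start 20845 bp inside.

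Measured around the annotated start, 105 of 299 zinc finger genes were under 20% (35.1%, against 31.6% of other genes) and 42 were above 50% (14.05% against 31.8%). Only 10 exceeded 80% (3.34% against 6.87%). These shares are descriptions, without a test between the sets. The highest start without extreme windows was that of Zfp708, in a cluster on chromosome 13, with 86.3%, 89.3% and 88.4% in mAdu and 86.6%, 89.8% and 91.6% in Aged. Zfp217, a single gene and the mouse counterpart of an amplified human oncogene, had 87.3% and Zfp235, in a cluster on chromosome 7, had 86.9%.

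The number of CpGs around the start went with the level there. In 300 bases the median was 13 CpGs for the 301 zinc finger genes and 14 for other genes. Starts with 0 to 4 CpGs had a median methylation of 60.4% (n = 27), those with 5 to 9 had 39.2% (n = 77), those with 10 to 19 had 29.2% (n = 113) and those with 20 or more had 22.3% (n = 82). The medians of other genes in the same classes were 69.5%, 54.4%, 28.3% and 16.9%. The zinc finger medians thus lay below those of other genes in the classes with fewest CpGs and above them in the remaining ones. Between 5 and 9 CpGs, 23.4% of zinc finger starts and 54.4% of other starts lay above 50%. Spearman's rho between CpG number and level was -0.421 over the 299 zinc finger genes and -0.712 over 15553 other genes, where the points share the 6 libraries and clustered genes share sequence.

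**Figure D3:**
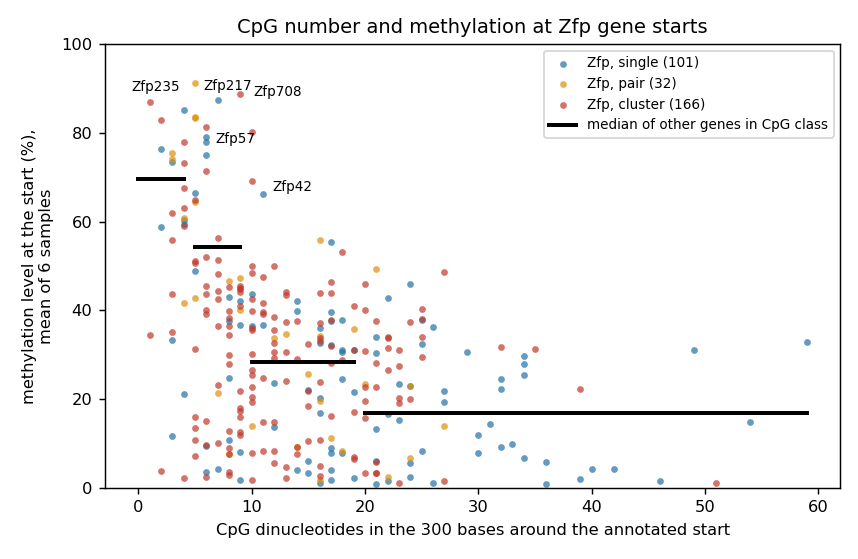
Methylation level at the annotated start (%, mean of 6 samples) against the number of CpGs in the 300 bases around it, 1 point per zinc finger gene, coloured by cluster, pair or single. Black bars give the median of other protein-coding genes in each CpG class. Between 5 and 9 CpGs the zinc finger genes have a median of 39.2%, below the 54.4% of other genes.

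3 motifs were searched on both strands of the 300-base sequences. TGCCGC, the core that Zfp57 binds when methylated, occurred in 45 of 301 zinc finger promoters (15.0%) and in 13.9% of other promoters. It was in 21.6% of single genes and 13.3% of cluster genes, and of the printed sequences those of Zfp277 and Zfp229 hold it. CCGGAAGT, a core of ETS-type factors, occurred in 9.97% against 5.36%, and the palindromic NRF1 core (any base at its middle position) in 7.97% against 6.86%. Median levels at starts with and without the motif were 22.9% (n = 45) and 31.1% (n = 254) for TGCCGC, 31.8% (n = 30) and 30.2% (n = 269) for the ETS-type core and 28.5% (n = 24) and 30.6% (n = 275) for the NRF1 core. A match is a string of letters, not a bound site.

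The largest clusters differed from each other mainly at their promoter ends. The 19 genes from Zfp712 to Zfp273 on chromosome 13 (67038594 to 67827000) had a median promoter end of 44.4%, body of 78.8% and opposite end of 89.9%. The 18 genes from Zfp677 to Zfp946 on chromosome 17 had 22.6%, 77.0% and 84.9%. The 15 genes from Zfp84 to Zfp146 on chromosome 7 had 33.2%, 80.2% and 92.0%, the highest opposite ends of the 28 clusters. The step from promoter to opposite end was thus large in all 3 of them.

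The 12 genes from Zfp992 to Zfp933 on chromosome 4 departed from this pattern, with a median promoter end of 61.8%, body of 66.6% and opposite end of 76.3%. These were the highest promoter median of all clusters and one of the lower bodies. Only 49.5% of the window positions of this cluster were listed, the smallest share of any, and 8.35% of its listed windows were extreme. The 12 genes from Zfp180 to Zfp575 on chromosome 7 had 47.8%, 75.4% and 86.2%, and the 11 from Zfp871 to Zfp414 on chromosome 17 had 26.5%, 83.4% and 90.5%. The 10 genes from Zfp553 to Zfp646 on chromosome 7 had the lowest promoter median, 7.31%; this cluster was added to the 6 largest after its value was seen. These promoter medians are at gene edges. Around annotated starts, where given, the medians of the 6 largest clusters were 38.3%, 22.6%, 30.3%, 59.0%, 36.9% and 25.9%, in the order named. Over all 28 clusters, promoter-end medians ran from 7.31% to 61.8%, body medians from 59.0% to 85.4% and opposite-end medians from 65.4% to 92.0%. Averaged over all listed windows of the locus, the 6 largest clusters differed between mAdu and Aged by at most 0.521 points, as in the first one with 76.9% in both.

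**Figure D4:**
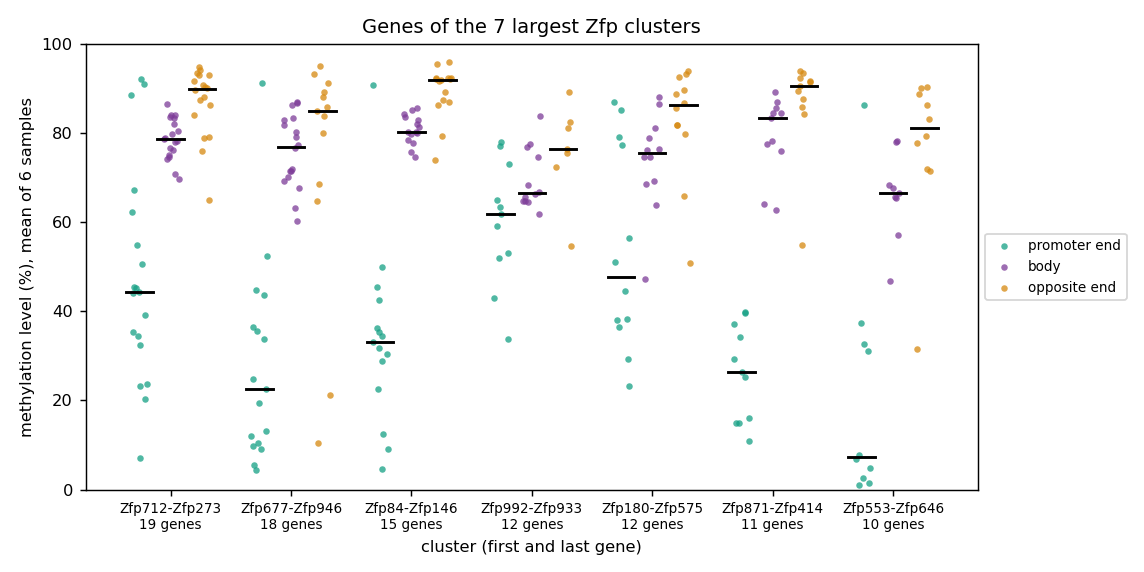
Methylation level (%, mean of 6 samples) of each gene in the 7 largest clusters at the promoter end, body and opposite end, with black lines at the medians. Promoter medians run from 7.31% in the Zfp553 to Zfp646 cluster to 61.8% in the Zfp992 to Zfp933 cluster, while all opposite-end medians shown lie at or above 76.3%.

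Opposite ends were not high everywhere. The lowest were in Zfp36 (3.63%), Zfp503 (6.59%), Zfp53 (10.6%) and Zfp628 (11.9%). Zfp36 is only 2445 bp long, and both its ends were low, with 13.3% at the promoter end. Zfp503, a developmental repressor, was low throughout, with 2.26% at the promoter end and 1.17% in the body, the lowest body of the family. The opposite end of Zfp53 is the same stretch as the promoter end of its neighbour Zfp52, at 10.6% in both. Of the 15 genes with an annotated start and an opposite end under 50%, 4 had the start of another gene within 1500 bp of that edge, against 1 of 262 genes from 50% upward.

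Bodies were lowest, after Zfp503, in its relative Zfp703 (32.6%), in Zfp830 (41.9%) and in Zfp688 (46.8%). They were highest in Zfp932, a silencer of endogenous retroviruses, with 94.1%, 94.5% and 96.1% in mAdu and 95.7%, 97.6% and 95.3% in Aged. Zfp35 (90.7%), Zfp808 (90.6%) and Zfp968 (90.2%, all windows extreme) followed. The highest opposite ends were those of Zfp157, Zfp930, Zfp960 and Zfp369, all between 96.0% and 96.4%.

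Genes known from early embryos and pluripotent cells ranged widely at the promoter end. Zfp42 (Rex1), a marker of pluripotent stem cells, had a promoter end of 62.4%, 68.0% and 65.5% in mAdu and 65.3%, 71.7% and 63.5% in Aged. Zfp352, which is active in the early embryo, had 74.98% ± 4.42 in mAdu and 77.8% ± 5.74 in Aged (SD, n = 3 each). Zfp57, which binds methylated imprinting control regions and recruits Trim28, had 78.8% ± 1.42 and 79.3% ± 1.53 (SD, n = 3 each). Its body (71.4% and 71.2%) was lower than its promoter end, unlike most of the family. Zfp296 and Zfp281, both factors of pluripotent cells, stood lower, at 31.1% and 21.8%. In the order named, the starts of Zfp42, Zfp352, Zfp57, Zfp296 and Zfp281 held 11, 2, 6, 19 and 27 CpGs. The part of CpG number in these levels was not tested.

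Zfp143, an activator that binds many promoters, had 7.76%, 7.81% and 8.01% in mAdu and 7.73%, 7.98% and 7.31% in Aged, beneath a body of 80.9%. Zfp207 (BuGZ), a spindle assembly protein, had 7.88%. Zfp335, a factor of neural and T cell development, had 51.4% at the gene edge and 16.7% around its annotated start, 835 bp inside.

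Factors of cell differentiation varied at the promoter end. Zfp521, a factor of blood and neural progenitors, had 9.72% at the promoter end and 78.4% in a body of 256 windows. Zfp536, a repressor of neuronal differentiation, had 11.3% and 69.6% over 420 windows. Zfp366 (DC-SCRIPT) had 14.8% and a comparatively low body of 56.2%, while Zfp462 had 55.0% and 79.5%.

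Among KRAB genes with a known silencing role, Zfp809, Zfp932 and Zfp568 had bodies above 80%. In the whole family 38.9% of bodies were above 80%. The bodies of Zfp57 and Zfp445, which act at imprinted regions, had means over the 6 samples below 80%. Zfp809, which silences murine leukaemia virus, had a promoter end of 40.3%, 38.7% and 41.9% in mAdu and 45.5%, 40.5% and 42.4% in Aged, and a body of 89.6%. Zfp932 had 40.1% at the promoter end. Zfp568, which represses a placental transcript of Igf2, had 22.6% and 85.7%. The co-repressor genes of the same pathway (13 genes, among them Trim28, Setdb1 and Dnmt1) had a median promoter end of 28.1% and a median body of 77.5%.

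Between mAdu and Aged no window or region of the family passed limma's test with Benjamini-Hochberg adjustment at 0.05 over all features. Of 9566 windows 0 passed, where 0.0211% of all windows did, and 384 (4.01%) had an unadjusted p under 0.05, where 4.67% of all did. Of 352 promoter ends 0 passed (0.0152% of all promoter ends), and 11 had an unadjusted p under 0.05 (3.13%, against 4.86%). Of 355 bodies 0 passed (0.0171% of all bodies), and 18 had an unadjusted p under 0.05 (5.07%, against 4.97%). The family's shares were thus near or below the background in these 3 sets.

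Opposite ends gave 0 of 331 passing (0% of all), and 26 had an unadjusted p under 0.05 in limma (7.85%, against 5.19%). Of these 26, 19 were lower in Aged, where 2.84% of all opposite ends were lower with such a p. The groups did not overlap in 43 opposite ends (12.99%, against 10.5%), 31 of them lower in Aged (9.37%, against 5.67%). Among the 210 genes with at least 80% of their window positions listed, 12 (5.71%) had an unadjusted p under 0.05 in limma. The share was 4.02% over all genes listed as well. The mean opposite end was 82.1% ± 0.341 in mAdu and 81.6% ± 0.746 in Aged (SD, n = 3 each), with Aged replicate 2 the lowest sample at 80.7%. Among co-repressor genes 0 of 13 promoter ends, bodies or opposite ends passed in limma. 2 of their 13 promoter ends had an unadjusted p under 0.05 (4.86% of all promoter ends did), and 11 were higher in Aged (50.9% of all were), where the median of the 13 differences was 0.85 points.

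The tests bounded differences well in bodies, less well at the ends and poorly in single windows. The 95% interval of the Aged minus mAdu difference lay within 5 percentage points of 0 in 325 of 355 bodies (91.5%, against 91.7% of all bodies). It did so in 240 promoter ends (68.2%, against 60.6%) and in 137 opposite ends (41.4%, against 38.9%). Among the family's windows it did so in only 1959 of 9566 (20.5%), so a window that did not pass may still differ. The same share over all windows is not given here. The differences were above 0 in 184 of 352 promoter ends (52.3%, against 50.9% of all), in 167 of 355 bodies (47.0%, against 47.7%) and in 148 of 331 opposite ends (44.7%, against 49.1%).

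**Figure D5:**
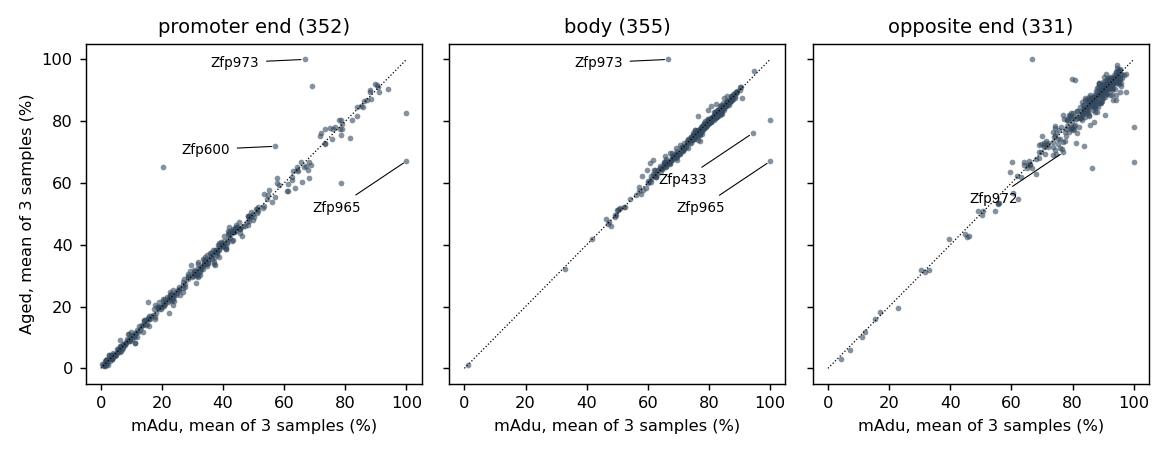
Mean methylation in Aged against mAdu (%, 3 samples each) for every zinc finger gene at the promoter end, body and opposite end, with the dotted line of equality. Nearly all genes lie along the line. Zfp973 and Zfp965, whose windows are all extreme, lie far from it, and Zfp600, Zfp433 and Zfp972 are genes with small unadjusted p-values.

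The promoter ends with the smallest p-values did not pass. Zfp600, a pair gene on chromosome 4, was at 63.2%, 54.9% and 53.2% in the mAdu samples, and the Aged samples had 67.8%, 73.3% and 74.6%. The groups did not overlap, and the difference was 14.78 points (SE 3.14, 95% interval 7.29 to 22.3, limma adjusted p = 0.952). Zfp511 on chromosome 7 was at 11.5%, 11.7% and 10.7% in mAdu and 8.41%, 9.10% and 7.55% in Aged, a difference of -2.96 points (SE 0.59, limma adjusted p = 0.952). Zfp853 (29.5% and 33.4%) and Zfp507 (19.1% and 21.5%) had higher Aged means, and Zfp317 (17.7% and 15.97%) and Zfp78 (22.2% and 18.0%) lower ones, with limma adjusted p of 0.952 to 0.973.

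In bodies, Zfp988 in the chromosome 4 cluster was at 59.6%, 58.8% and 60.4% in mAdu and 65.9%, 63.1% and 63.2% in Aged (limma adjusted p = 0.953). Zfp445 was at 78.8%, 79.0% and 78.5% in mAdu and 79.9%, 80.2% and 80.1% in Aged, a difference of 1.33 points (SE 0.32, limma adjusted p = 0.953). All 3 Aged values lay above all 3 mAdu values in both genes, by a small margin in Zfp445. Zfp317 (86.0% and 88.1%) had a higher Aged mean, while Zfp408 (76.9% and 75.4%) and Zfp82 (82.7% and 81.3%) had lower ones. Zfp433 on chromosome 10 was at 98.7%, 88.2% and 95.9% in mAdu and 86.2%, 79.1% and 63.0% in Aged, with 5 of its 12 body windows extreme (limma adjusted p = 0.953).

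At opposite ends, Zfp972 on chromosome 2 was at 77.0%, 76.6% and 77.2% in mAdu and 72.3%, 69.0% and 68.5% in Aged. The groups did not overlap, and the difference was -7.06 points (SE 1.54, limma adjusted p = 0.954). Zfp493 (93.2% and 87.0%) and Zfp446 (93.0% and 88.6%) also had lower Aged means. Zfp960 (94.5% and 98.1%), Zfp949 (91.5% and 93.7%) and Zfp383 (76.8% and 81.9%) had higher ones, all 5 with a limma adjusted p of 0.954.

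A difference of more than 10 points was found in 7 promoter ends (1.99%, against 1.33% of all), 4 bodies (1.13%, against 0.656%) and 7 opposite ends (2.11%, against 1.4%), over 10 genes: Zfp968, Zfp965, Zfp973, Zfp993, Zfp575, Zfp640, Zfp97, Zfp781, Zfp600 and Zfp433. Of these 10 genes, 9 stood in clusters or pairs, 9 had under 80% of their positions listed and 8 held an extreme window. In the whole family these numbers were 231, 150 and 21 of 360 genes. The promoter end of Zfp97 on chromosome 17 was at 42.5%, 7.75% and 10.7% in mAdu and 88.3%, 33.0% and 74.6% in Aged. The groups overlapped there, and the limma p was 0.0237 before adjustment. These 10 genes were chosen after their values were seen.

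The spread between samples moved with listing. The median within-group SD of promoter ends was 2.03 points in genes with under 60% of positions listed, 1.55 from 60% to 80% and 1.22 from 80% upward. At opposite ends it was 3.46, 2.83 and 1.74 points, and in bodies 1.18, 0.795 and 0.691.

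Among single windows the smallest adjusted p of the family was 0.075 by limma, for chr4:120941001-120942000 in Zfp69, a gene linked to diabetes susceptibility in mice. The window was under 0.01% in all 3 mAdu samples and at 59.4%, 91.1% and 83.8% in Aged, so that it counts as extreme. The adjacent window, chr4:120942001-120943000, had 42.8%, 25.1% and 35.7% in the mAdu samples and 100%, 100% and 64.9% in the Aged ones (limma adjusted p = 0.978). The next smallest adjusted p, 0.106 by limma, belonged to chr19:61122001-61123000 in Zfp950, at 99.6%, 95.1% and 99.1% in mAdu and 76.9%, 80.4% and 80.5% in Aged, with no extreme value. Both genes were picked after their values were seen.

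Leaving out single samples changed the window count, in the family as over all windows. Without Aged replicate 1, 3 windows passed in limma: the Zfp69 window (adjusted p = 0.00052 by limma), chr4:147182001-147183000 in Zfp978 and chr17:21550001-21551000 in Zfp52. The Zfp52 window had 0.0020%, 5.36% and 7.04% in the mAdu samples and 2.90%, 100% and 100% in the Aged ones. Without Aged replicate 2, 1 window of Zfp433 passed, and without Aged replicate 3, 2 windows passed, in Zfp993 and Zfp433. These counts are 0.0314%, 0.0105% and 0.0209% of the family's windows, against 0.0593%, 0.0449% and 0.0494% of all windows in the same fits. Leaving out mAdu replicate 1, 2 or 3 left the family's count at 0, where 0.0469%, 0.045% and 0.0404% of all windows passed. Of the 6 family windows 4 held an extreme value.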

How the data were processed

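The deposited table gives, per 1-kb window and sample, the mean methylation as a fraction from 0 to 1, made by the authors; the reads were aligned to mm10 with BWA 0.7.8, per the submitters' processing notes, and neither the methylation caller nor a coverage filter is given in the sources used. Each of the 6 samples was sequenced from several libraries, per the labels' protocols. Fractions were multiplied to percent, and 1683697 of 1684140 windows had a value in all 6 samples. Gene spans came from RefSeq (GRCm38.p6) and starts from its promoter sequences, matched by gene ID for 301 of 360 genes. A region's value is the mean of its windows, with at least 3 windows for a body. The Aged minus mAdu difference was tested with limma 3.58.1 in R 4.3.3 (variance trend, group only, all 6 samples), with Benjamini-Hochberg adjustment over all autosomal windows or all protein-coding genes at 0.05. The code was tested on simulated data with planted differences. In windows, limma recovered 0% of differences of 10 points and 17% of those of 25 points, with 13 false calls. In promoter ends, bodies and opposite ends it recovered 73%, 95% and 64% at 10 points. At 25 points it recovered 98%, 98% and 100%. Genes and lists were chosen with earlier results of these data known. Named were genes that passed (none did), the 3 smallest p-values per direction and region, the 4 lowest and 4 highest levels per region, a list of genes with known roles, and the 6 largest clusters; any other gene named is marked as chosen after its values were seen or is printed for its start level, its listing or its extreme windows. Protein features such as finger number and KRAB domain were not analysed here.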

Additional observations from a re-analysis of the deposited data

How the results depend on the processing

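Promoter ends, bodies and opposite ends passing in limma stayed at 0 under every alternative run: each sample left out, no extreme windows, a logit scale, no variance trend, wider or narrower ends, longer bodies and other choices of the promoter end. For windows, leaving out a sample gave 0 to 3 passing, as described in the report, and the other settings gave 0. The samples share replicate numbers between the ages. With the number as a block, 0 windows, promoter ends, bodies and opposite ends passed. The deviations of same-numbered samples had correlations of -0.0116, -0.0167 and -0.000645 over windows. Over bodies these were -0.166, -0.136 and -0.00642, and over promoter and opposite ends they ran from -0.122 to -0.0025. None was positive, so the numbers were not taken as pairs. For the differences of named genes, 911 of 981 values kept their direction, 70 turned it without passing, and none passed (smallest limma adjusted p = 0.502).

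Levels depended on where a region was placed. The mean promoter end, 34.1%, was 44.8% with ends from 2000 bp outside to 1000 bp inside, 29.1% with 500 bp on each side, 33.4% at the less methylated end, 30.3% around annotated starts, 33.5% without extreme windows and 32.4% in genes with at least 80% of positions listed. The mean body, 75.4%, was 78.3% with the wide ends and 73.9% in well-listed genes. The mean opposite end, 81.8%, was 81.0% (wide), 82.8% (less methylated end), 81.1% (annotated starts) and 80.8% (well listed). The cluster minus single difference at the promoter end, 6.30 points, was 8.23 (wide), 5.35 (less methylated end), 4.62 (annotated starts), 4.80 (well listed), 5.51 with cluster gaps of at most 100 kb and 7.61 with 500 kb. In bodies, 3.16 points became 3.65 (wide), 3.47 (100 kb), 3.76 (500 kb) and 4.54 (well listed). At opposite ends, -0.478 became 0.347 (narrow), 0.709 (less methylated end) and -1.26 (500 kb), so its sign is not settled. The annotated-start and well-listed settings were chosen after seeing the data. Wider ends include more body by construction; the cause of the other shifts was not tested. Coverage is unknown, which limits what any single window can show, and 3 samples per age limit all tests.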
